A study of Mus musculus with 16 samples.

Results

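MED1 and CBP were mapped by chromatin immunoprecipitation followed by sequencing (ChIP-seq) in 3T3-L1 adipocytes that had received solvent but no added PPARγ ligand. The MED1_DMSO library and the CBP_DMSO library, 2 of the 16 samples of the series, were chosen by their antibody and treatment labels. 3T3-L1 cells are mouse fibroblasts that become fat cells in culture, here with dexamethasone, 3-isobutyl-1-methylxantine, insulin and serum. Both libraries came from cells at day 7 of this differentiation that received 0.1% DMSO for 1 h, one with anti-MED1 and the other with anti-CBP. The labels do not say whether both came from 1 culture. The PPARγ and C/EBPα signals of the same DMSO treatment were used to describe the sites, and neither the rosiglitazone libraries nor RNA polymerase II or input chromatin enters any value given here.

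MED1 is a subunit of Mediator, the large complex that links transcription factors at enhancers to RNA polymerase II. It carries motifs through which nuclear receptors such as PPARγ bind Mediator when a ligand is present. CBP is a histone acetyltransferase that binds many transcription factors and acetylates histones at active enhancers. PPARγ, with its partner RXR, and C/EBPα are the main transcription factors of fat cells, and both recruit coactivators of these kinds.

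Coactivator signal was read in the windows of the authors' peak lists, with 30588 PPARγ peaks of 186 bp and 30519 C/EBPα peaks, of which 30516 were 230 bp long. A PPARγ peak and a C/EBPα peak with at least 1 bp in common were called shared. This gave 19554 PPARγ peaks without a C/EBPα peak, 11034 shared PPARγ peaks and 19486 C/EBPα peaks without a PPARγ peak. The deposited signal is a count of tags, the mapped sequence reads, times a fixed factor for each library. One tag was worth 3.49 deposited units for MED1 and 2.21 for CBP. On the assumption of a scale of 10 M tags per library, which no header states, the MED1 library held 2.86 M tags and the CBP library 4.52 M.

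Single sites were thinly covered in both libraries. PPARγ peaks held 160071 MED1 tags and 162446 CBP tags in all, with a median of 2 per peak for each. C/EBPα peaks held 159473 MED1 tags, with a median of 2, and 184156 CBP tags, with a median of 3. In the PPARγ list 17458 peaks had tags of both coactivators, 3911 had MED1 tags only, 3992 had CBP tags only, and 5227 had neither. Of the C/EBPα peaks 17720 had both, 3356 MED1 only, 4876 CBP only and 4567 neither. Each antibody has 1 library, so none of the differences could be checked against replicates or tested. The 95% intervals are exact binomial (Clopper-Pearson) for a ratio of summed tags. They cover counting error only, not the spread between cultures or between peaks.

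Sites with more MED1 mostly had more CBP as well, and the balance between them varied with which factors had a peak at the site. The quantity used throughout is the MED1:CBP ratio, the MED1 signal summed over a group of peaks divided by the CBP signal summed over the same peaks. Across all 30588 PPARγ peaks the signals of the 2 coactivators had a Spearman rho of 0.62, and across all 30519 C/EBPα peaks 0.60. Peaks of a list share their library, local background and copy number, so these values are descriptions.

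PPARγ peaks without a C/EBPα peak carried the most MED1 for their CBP, and C/EBPα peaks without a PPARγ peak the least. At PPARγ-only peaks the mean signal per peak was 12.5 units of MED1 and 7.21 of CBP, a ratio of 1.73 (1.72 to 1.75). At shared peaks it was 28.5 units of MED1 and 19.8 of CBP, a ratio of 1.44 (1.43 to 1.46). At C/EBPα-only peaks it was 10.2 units of MED1 and 8.02 of CBP, a ratio of 1.27 (1.26 to 1.28). Sites with peaks of both factors thus held the most of both coactivators, while their balance lay between those of sites with a peak of 1 factor. These classes rest on peak calls, not on absence of signal. PPARγ-only peaks with 0 C/EBPα tags had a ratio of 1.45 (1.42 to 1.49), near that of shared peaks. Those with 4 to 6 C/EBPα tags had 2.05 (1.99 to 2.10). Over all 50074 sites, each shared site counted once, the ratio was 1.47 (1.46 to 1.48). The absolute level depends on how well each antibody and library worked, so the values that can be read are the differences between classes.

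**Figure D1:**
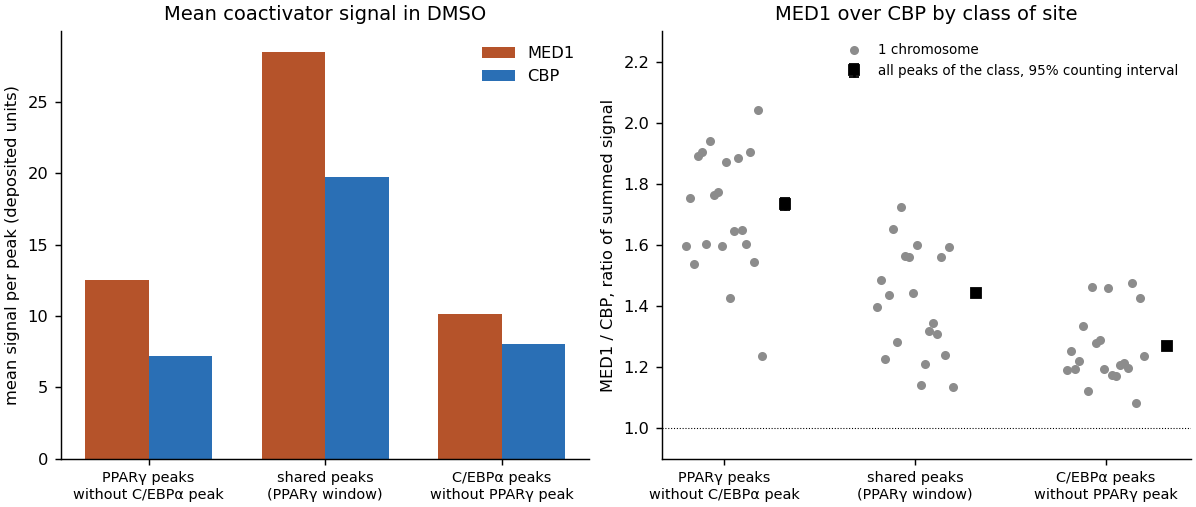
Left, mean MED1 and CBP signal per peak in DMSO, in deposited units, for the 3 classes of site. Right, the MED1:CBP ratio of summed signal, with 1 grey point for each of 20 chromosomes and a black square with its 95% counting interval for the whole class. The ratio is 1.73 at PPARγ-only, 1.44 at shared and 1.27 at C/EBPα-only peaks.

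The ratio at PPARγ-only peaks was 1.37 times that at C/EBPα-only peaks (1.35 to 1.39, Woolf interval from tag counts). It was at or above the C/EBPα-only value on 20 of 20 chromosomes, from 1.00 times on chromosome X to 1.56 times on chromosome 14. Shared peaks had 1.14 times the ratio of C/EBPα-only peaks (1.12 to 1.15), and were above it on 18 of 20 chromosomes, with 0.918 times as the lowest value, on chromosome X. PPARγ-only peaks had 1.20 times the ratio of shared peaks (1.18 to 1.22), above 1 on 20 of 20 chromosomes. With peaks compared only within 8 strata of similar MED1 plus CBP tags (Mantel-Haenszel odds ratio), these 3 values were 1.37, 1.14 and 1.19. Chromosomes are not replicates, and the comparison is between 1 MED1 library and 1 CBP library. The values depend on what counts as shared. With shared sites limited to centres at most 50 bp apart, the first was 1.23 and the second 1.04.

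The ratio also varied between chromosomes. Over the 20 chromosomes, the autosomes and X, it was among PPARγ peaks highest on chromosome 7, at 1.82 (1.76 to 1.87), followed by chromosome 19 at 1.75 and chromosome 5 at 1.75. It was lowest on chromosome X, at 1.19 (1.12 to 1.27), and on chromosome 12, at 1.26 (1.21 to 1.31). Among C/EBPα peaks chromosome 7 was again highest of these 20, at 1.62 (1.58 to 1.67), and chromosome 18 was lowest, at 1.17 (1.12 to 1.23). Both lists hold the shared sites and come from the same libraries, so the second list is not an independent observation.

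Values of single peaks lay on both sides of these averages. For peaks with at least 20 MED1 plus CBP tags, the log2 of MED1 over CBP was taken after adding 1 deposited unit to each, which understates the difference at low peaks. Of the 30588 PPARγ peaks 5015 passed this minimum, and of the 30519 C/EBPα peaks 5498 did. The median log2 value was 0.64 in the PPARγ list (quartiles -0.20 and 1.38) and 0.51 in the C/EBPα list (quartiles -0.38 and 1.29). Among them 1886 PPARγ peaks (37.6%) were at least 2-fold towards MED1 and 556 (11.1%) at least 2-fold towards CBP. Of the C/EBPα peaks 1856 (33.8%) leaned to MED1 and 764 (13.9%) to CBP. Peaks past 2-fold had a median of 28 or 29 MED1 plus CBP tags, by list and direction. At such counts counting error alone places some peaks past 2-fold, and how many was not computed. The split between MED1 and CBP also rests on the scale of the libraries. Centred on the median of each list, 884 PPARγ peaks (17.6%) leaned to MED1 and 1046 (20.9%) to CBP, and 1060 (19.3%) and 1246 (22.7%) C/EBPα peaks did so.

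These counts were also taken by class. PPARγ-only peaks leaned to MED1 in 697 of 1658 cases (42.0%, against 37.6% in the whole list) and to CBP in 148 (8.93%, against 11.1%). Shared PPARγ peaks leaned to MED1 in 1189 of 3357 cases (35.4%) and to CBP in 408 (12.2%). C/EBPα-only peaks leaned to MED1 in 443 of 1518 cases (29.2%, against 33.8% in the whole list) and to CBP in 291 (19.2%, against 13.9%). After centring, 347 (20.9%) of the PPARγ-only peaks leaned to MED1 and 285 (17.2%) to CBP, and 263 (17.3%) and 455 (30.0%) of the C/EBPα-only peaks did. With each list centred on its own median, the direction of the split was thus opposite in these classes. The lists were shifted by different amounts, 0.642 and 0.506 in log2, and each median also includes the shared peaks. The opposite direction therefore adds little to the class ratios, and the difference was not tested. The minimum on tags leaves 17896 PPARγ-only and 17968 C/EBPα-only peaks out of these counts.

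**Figure D2:**
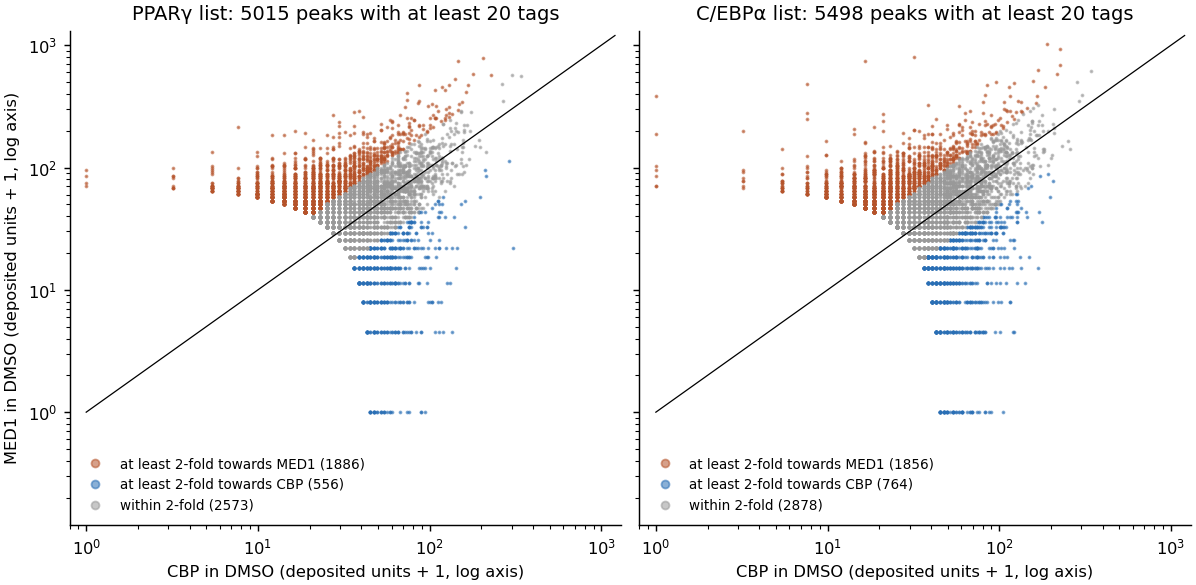
MED1 signal against CBP signal in DMSO for each peak with at least 20 MED1 plus CBP tags, both axes logarithmic and in deposited units plus 1, for the PPARγ list on the left and the C/EBPα list on the right. The line marks equal signal. Peaks at least 2-fold towards MED1 (1886 and 1856) outnumber those towards CBP (556 and 764), and a row of peaks at the bottom has CBP but no MED1 tags.

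PPARγ peaks that leaned to CBP had a higher median PPARγ signal than those that leaned to MED1. It was 14.1 units at peaks towards MED1 and 18.5 at peaks towards CBP. The authors' peak score ran the other way, with a median of 21.8 at peaks towards MED1 and 17.5 at peaks towards CBP. The C/EBPα signal had the same median in both, 13.2 units, and so did the focus ratio, 0.800. Among C/EBPα peaks the medians of C/EBPα signal differed, with a median of 27.6 units at peaks towards MED1 and 19.9 at peaks towards CBP, while PPARγ was 10.6 and 11.4 units. Quartiles overlapped in each of these comparisons. For C/EBPα in that list, they were 17.7 and 55.2 units at peaks towards MED1 and 13.2 and 35.3 at peaks towards CBP. Shared peaks made up 63.0% of the PPARγ peaks towards MED1 and 73.4% of those towards CBP, against 66.9% of all PPARγ peaks with at least 20 tags. Of the C/EBPα peaks towards MED1 76.1% were shared, and of those towards CBP 61.9%, against 72.4% of all with at least 20 tags.

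The 10 PPARγ peaks furthest towards MED1 had 20 to 61 MED1 tags and 0 to 3 CBP tags. With so few CBP tags a peak passes the minimum of 20 tags mainly through MED1, so this follows largely from the choice. First was a shared peak at chr2:132607448-132607634 (mm9), with 27 MED1 tags and 0 CBP tags. Computed against a floor of 3 CBP tags, MED1 was at least 14.2-fold higher there. That floor takes the MED1 count as exact, and the exact 95% lower limit of the ratio, which counts its error too, was 10.8. Peaks furthest to either side were picked by this ratio, and no limit given for them, here or below, allows for that choice. A shared peak at chr10:80639115-80639301 held 24 MED1 tags and 0 CBP tags, at least 12.6-fold higher by the floor and with a lower limit of 9.52. A PPARγ-only peak at chr5:114625719-114625905 held 21 and 0, at least 11.1-fold higher by the floor with a lower limit of 8.23. One at chr2:155969821-155970007 held 20 and 0, at least 10.5-fold higher by the floor with a lower limit of 7.81. A further PPARγ-only peak at chr2:71049699-71049885 held 28 MED1 tags and 1 CBP tag, a ratio of 44.3 (7.32 to 1810). None of these 5 peaks was strong in PPARγ, with 7.03 to 14.1 units. Among the 10 peaks furthest towards MED1, 6 were shared, near the 66.9% of all PPARγ peaks with at least 20 tags. The median PPARγ signal was 8.79 units in these 10 and 15.8 units in all with at least 20 tags.

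The PPARγ peaks furthest towards CBP had no MED1 tag at all. First was a PPARγ-only peak at chr5:97424918-97425104, with 0 MED1 tags and 42 CBP tags. Computed against a floor of 3 MED1 tags, MED1 was at least 8.85-fold lower there, and the exact 95% upper limit of the MED1:CBP ratio was 0.145. Shared peaks at chr2:6871840-6872026 and at chr5:29715298-29715484 each held 0 MED1 and 40 CBP tags, at least 8.43-fold lower by the floor with an upper limit of 0.153. The first of this pair was a well occupied PPARγ site, with 47.5 units of PPARγ and 15.5 of C/EBPα. The other held 13.2 and 46.4 units. Shared peaks at chr6:12408863-12409049 and chr19:22065522-22065708 followed, with 0 MED1 tags each and 34 and 33 CBP tags. All 10 peaks furthest towards CBP had 0 MED1 tags and 25 to 42 CBP tags. Without MED1 tags a peak passes the minimum on tags through CBP alone, so this follows largely from the choice. Of these 10 peaks 7 were shared, again near the 66.9% of all. The median PPARγ signal of the 10 was 16.7 units, near the 15.8 units of all PPARγ peaks with at least 20 tags. The highest was 97.6 units at chr19:6268830-6269016, the last of the 10, which was singled out after its values were seen.

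Among C/EBPα peaks, the first 2 towards MED1 lay on the mitochondrial chromosome, which was marked as high background. They held 109 and 53 MED1 tags and 0 CBP tags, beside 474 and 230 tags of C/EBPα. A C/EBPα-only peak at chr14:56290943-56291173 held 24 MED1 tags and 0 CBP tags, with 0 tags of PPARγ. The shared sites on chromosomes 2 and 10 named above appeared here too, in their C/EBPα windows, with 29 and 27 MED1 tags and 0 CBP tags. A peak singled out after its values were seen, the C/EBPα-only peak at chr1:46910238-46910468, held 211 MED1 and 7 CBP tags, a ratio of 47.7 (22.7 to 120). It held 4 PPARγ tags and 11 C/EBPα tags, so MED1 had the most tags there of the 4 antibodies.

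The C/EBPα peaks furthest towards CBP again had 0 MED1 tags in 10 of 10 cases, with 31 to 47 CBP tags. These too passed the minimum on tags through CBP alone, so their lack of MED1 tags follows largely from the choice. The first of the 10 was the shared site on chromosome 2 from the PPARγ list, at chr2:6871794-6872024 in its C/EBPα window. It held 0 MED1 and 47 CBP tags. MED1 was at least 9.91-fold lower there by the floor of 3 MED1 tags, and the upper limit of the ratio was 0.129. A shared peak at chr17:75417546-75417776 held 40 CBP tags, 25 PPARγ tags and 26 C/EBPα tags. A C/EBPα-only peak at chr1:185745181-185745411 held 39 CBP tags, 2 PPARγ tags and 12 C/EBPα tags. Of the 10 sites furthest towards CBP in the PPARγ list, 4 overlapped one of the 10 in the C/EBPα list, and of those towards MED1, 2 did. Overlapping windows read many of the same tags, so this recurrence is not an independent observation. The PPARγ list has 0 mitochondrial peaks, so the 2 mitochondrial C/EBPα peaks towards MED1 could not overlap one.

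The sites with the most coactivator tags leaned to MED1 by different amounts. A shared site at chr6:115461540-115461726 led the PPARγ list with 225 MED1 and 92 CBP tags, or 786 and 203 units, a ratio of 3.87 (3.02 to 4.98). Its C/EBPα signal was 583 units and its PPARγ signal 99.4. In its C/EBPα window the ratio was 4.13 (3.27 to 5.25), and a neighbouring C/EBPα peak at chr6:115469402-115469632 had 198 MED1 and 102 CBP tags, a ratio of 3.07 (2.41 to 3.94). A PPARγ-only peak at chr10:117154738-117154924 held 160 MED1 and 154 CBP tags, a ratio of 1.64 (1.31 to 2.06), close to the value of its class. A shared peak nearby at chr10:117183471-117183657 had a ratio of 1.91 (1.51 to 2.41). The most C/EBPα signal of any peak, 6244 units, lay at chr17:39984676-39984906 beside 292 MED1 and 85 CBP tags, a ratio of 5.43 (4.25 to 7.00). The PPARγ peak next to it, at chr17:39984988-39985174, had a ratio of 5.06 (3.82 to 6.77). All 4 antibodies were high at these 2 neighbouring peaks, and the PPARγ peak held the most PPARγ signal of its list, 719 units. Neither peak was marked as high background, a mark that needs at least 5 unshared peaks in 1 Mb. Whether their signal is background was not tested. Without the 10 richest peaks of each list the ratio was 1.73 at PPARγ-only, 1.44 at shared and 1.26 at C/EBPα-only peaks.

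Within the PPARγ list, peaks with more PPARγ signal had less MED1 for their CBP. Peaks were ordered by their PPARγ tags in DMSO and split into 5 groups, with equal values kept together. From the lowest group, with 0 to 6 PPARγ tags, to the highest, with at least 20, the MED1:CBP ratio was 2.01, 1.87, 1.60, 1.45 and 1.38. The intervals of the end groups were 1.97 to 2.05 and 1.36 to 1.39. Mean MED1 signal was 14.6 units in the lowest group and 13.5 in the third, and mean CBP signal 7.29 and 8.46 units. In the highest group both were larger, at 32.8 units of MED1 and 23.8 of CBP. As a fold between the end groups, though not in units, CBP differed more than MED1.

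The order was the same with and without a C/EBPα peak at the site. At PPARγ-only peaks the ratio was 2.18 (2.12 to 2.24) in the lowest group and 1.52 (1.49 to 1.55) in the highest, and at shared peaks 1.84 (1.79 to 1.89) and 1.32 (1.31 to 1.34). The span was smaller among peaks with at least 20 coactivator tags, where the end groups had 1.61 (1.56 to 1.66) and 1.46 (1.44 to 1.48). Across those 5015 peaks the log2 value and the PPARγ signal had a Spearman rho of -0.09, so PPARγ signal says little about any single peak. Ordered by the authors' peak score instead, the 5 groups had ratios between 1.53 and 1.59 with no direction. Among peaks with at least 20 coactivator tags, however, the ratio was 1.22 (1.17 to 1.27) in the lowest score group and 1.59 (1.57 to 1.61) in the highest. The peaks with 0 to 6 PPARγ tags had a mean PPARγ signal of 3.83 units in DMSO but a median score of 9, and which treatments entered that score is not given in the sources used here.

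PPARγ signal had no such order over all peaks of the C/EBPα list, with ratios of 1.34, 1.40, 1.42, 1.40 and 1.33 from the lowest to the highest group. Shared and unshared peaks differed beneath that flat line. At shared C/EBPα peaks the ratio was 1.95 (1.79 to 2.12) in the lowest group, with 178 peaks, then 1.93, 1.77 and 1.56, and 1.33 (1.31 to 1.34) in the highest. At C/EBPα-only peaks it was 1.30 (1.27 to 1.33) in the lowest group and 1.15 (1.12 to 1.18) in the fourth. In the highest, which held 490 peaks, it was 1.44 (1.38 to 1.51). These 490 peaks included 2 mitochondrial peaks, with 109 and 53 MED1 tags and 0 CBP tags. Also among them was the peak at chr17:39984676-39984906, with 292 MED1 and 85 CBP tags. The group held 4065 MED1 and 4451 CBP tags in all, so these peaks weigh on its ratio. The ratio without them was not computed, and the higher value of this group is not shown to hold without them. Limited to at least 20 coactivator tags, the list as a whole ran the other way, with 1.13 (1.08 to 1.19) in the lowest group and 1.41 (1.39 to 1.43) in the highest.

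C/EBPα signal went with the opposite balance in its own list. From the lowest group of C/EBPα tags to the highest, the ratio was 1.17 (1.15 to 1.20), 1.23, 1.35, 1.36 and 1.52 (1.50 to 1.53). Mean MED1 signal over these groups ran between 10.2 and 34.9 units and mean CBP signal between 8.66 and 23.0 units, so MED1 differed more than CBP. At C/EBPα-only peaks the end groups had 1.11 (1.08 to 1.14) and 1.58 (1.54 to 1.62), and at shared peaks 1.25 (1.22 to 1.28) and 1.50 (1.48 to 1.52). Among peaks with at least 20 coactivator tags the end groups had 1.17 and 1.53. The authors' peak score did not give this order, with ratios of 1.47, 1.35, 1.32, 1.30 and 1.41 from the lowest to the highest score group. By score the end groups had 1.71 and 1.40 at shared peaks and 1.32 and 1.47 at C/EBPα-only peaks. With at least 20 coactivator tags they had 1.46 and 1.44.

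Over the PPARγ list the same measure gave 1.45, 1.58, 1.63, 1.62 and 1.51, with no single direction. PPARγ-only peaks had a ratio of 1.45 (1.42 to 1.49) with 0 C/EBPα tags, 1.66, 1.82, and 2.05 (1.99 to 2.10) with 4 to 6 tags. The 391 of them with at least 7 tags had 1.94 (1.86 to 2.02). Shared PPARγ peaks had 1.45 (1.34 to 1.58) with 0 C/EBPα tags, at 196 peaks, 1.20 (1.13 to 1.26) with 1 tag and 1.49 (1.47 to 1.51) with at least 7. The make-up of the groups differed, since 196 of the 6128 peaks with 0 C/EBPα tags were shared and 5983 of the 6374 with at least 7.

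**Figure D3:**
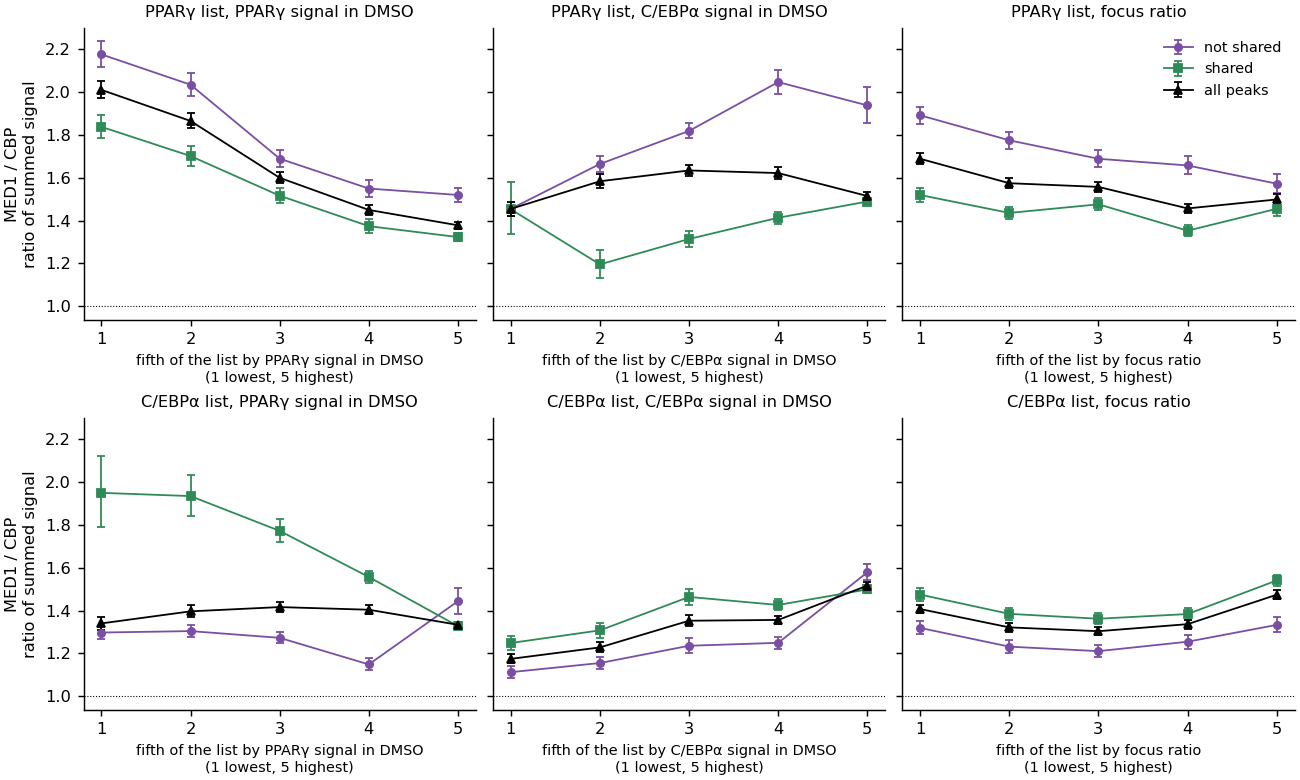
MED1:CBP ratio of summed signal with 95% counting intervals over 5 groups of peaks, ordered from lowest to highest by PPARγ signal, C/EBPα signal or focus ratio. The upper row is the PPARγ list and the lower row the C/EBPα list. From the lowest to the highest group the ratio over all peaks runs between 2.01 and 1.38 with PPARγ signal in the PPARγ list, and between 1.17 and 1.52 with C/EBPα signal in the C/EBPα list.

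Groups were then formed by both factors at once. For PPARγ peaks the ratio was lowest at peaks in the fourth PPARγ group with 0 C/EBPα tags, at 1.19 (1221 peaks), and highest, at 2.11, in the lowest PPARγ group with 2 or 3 C/EBPα tags (1448 peaks), with 2.11 also for 1 tag and 2.10 for 4 to 6 tags. In the highest PPARγ group it lay between 1.30 and 1.41 whatever the C/EBPα signal. For C/EBPα peaks the lowest ratio, 1.06, belonged to the 828 peaks with the most PPARγ and the least C/EBPα. The highest, 1.83, belonged to 735 peaks in the highest C/EBPα group and the second lowest PPARγ group. Within each of the 5 PPARγ groups of the C/EBPα list, the highest C/EBPα group had a higher ratio than the lowest. These groupings were made with earlier values known and carry no test.

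**Figure D4:**
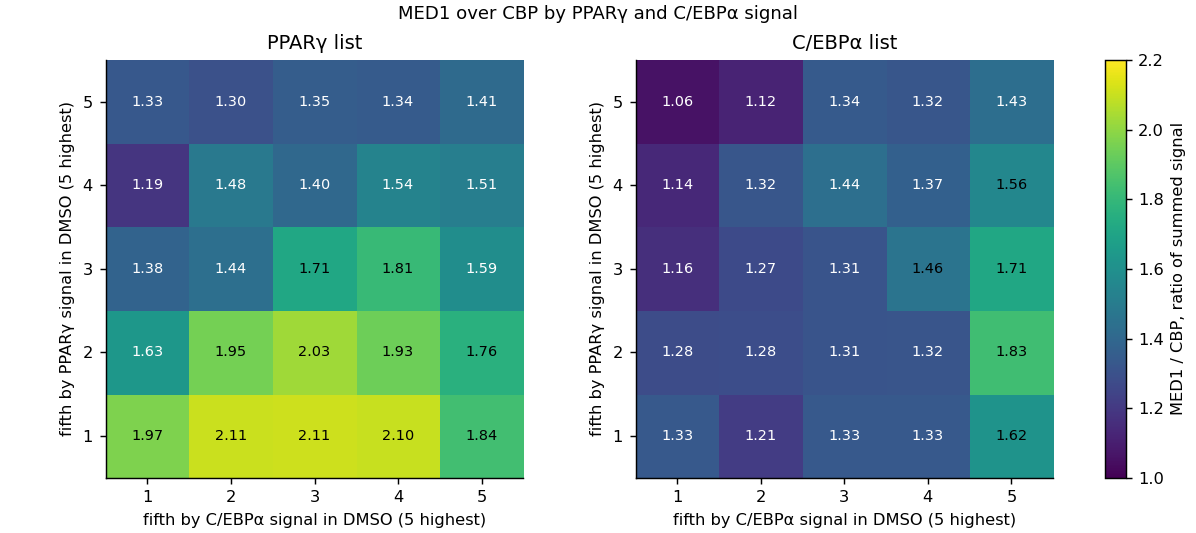
MED1:CBP ratio of summed signal in 25 groups of peaks, by PPARγ signal (rows) and C/EBPα signal (columns) in DMSO, for the PPARγ list on the left and the C/EBPα list on the right. The PPARγ list has its highest ratios along the bottom, up to 2.11 where PPARγ is low, and the C/EBPα list in its right column, up to 1.83 where C/EBPα is high.

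Peaks were also grouped by focus ratio. This is a value per peak between 0 and 1 that the authors deposited, and it is higher where the tags of the peak's own factor form a sharper peak. For PPARγ peaks the ratio of the coactivators was 1.69 (1.66 to 1.71) in the group with the lowest focus ratio, up to 0.718, then 1.57, 1.56 and 1.46, and 1.50 (1.47 to 1.53) in the highest, from 0.900. PPARγ-only peaks had 1.89 (1.85 to 1.93) in the lowest group and 1.57 (1.53 to 1.62) in the highest. At shared peaks the end groups had 1.52 and 1.46. Among peaks with at least 20 coactivator tags the order turned, with 1.49 in the lowest group and 1.58 in the highest. For C/EBPα peaks it was 1.41, 1.32, 1.30, 1.34 and 1.47 from the lowest to the highest group, with the ends above the middle.

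Shared sites whose PPARγ and C/EBPα peak centres lay further apart had more MED1 for their CBP. Where they lay under 20 bp apart, at 2876 sites, the ratio in the PPARγ window was 1.36 (1.33 to 1.38), with means of 29.8 units of MED1 and 22.0 of CBP. At 20 to 50 bp it was 1.44, at 50 to 100 bp 1.44, and at 100 to 150 bp 1.63 (1.58 to 1.68). At 150 bp or more, over 688 sites, it was 1.69 (1.62 to 1.76), with 23.9 units of MED1 and 14.2 of CBP. The C/EBPα windows of the same sites gave 1.36 (1.34 to 1.39) under 20 bp and 1.67 (1.61 to 1.74) at 150 bp or more. The factors also differed between these groups. In the C/EBPα windows mean PPARγ signal was 21.6 units under 20 bp and 8.20 at 150 bp or more, and mean C/EBPα signal 43.3 and 27.3 units. Their part in the result was not tested.

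Crowded peaks leaned further to MED1. PPARγ peaks with no other PPARγ peak within 10 kb had a ratio of 1.48 (1.46 to 1.50, 13837 peaks). With 1 such neighbour it was 1.57, with 2 it was 1.60, with 3 or 4 it was 1.67 (1.64 to 1.70, 2523 peaks), and with 5 or more 1.83 (1.69 to 1.99, 163 peaks). The C/EBPα list ran in the same order, from 1.31 (1.29 to 1.32, 15196 peaks) without a neighbour to 1.48 (1.44 to 1.52, 1698 peaks) with 3 or 4. Its 57 peaks with 5 or more had 1.77 (1.53 to 2.06). Mean MED1 and CBP signal were both higher with neighbours, at 27.4 and 16.4 units for PPARγ peaks with 3 or 4 of them and 13.8 and 9.33 units for those with none. The order was not the same in every class, since PPARγ-only peaks had 1.81 with 2 neighbours and 1.75 with 3 or 4.

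Neighbouring peaks tended to lean the same way. Successive PPARγ peaks with at least 20 coactivator tags were paired along each chromosome. When 1 to 10 kb lay between them, their log2 values had a Spearman rho of 0.29 over 612 pairs, and under 1 kb 0.20 over 151 pairs. Pearson's r was 0.29 at 1 to 10 kb but 0.08 under 1 kb. At 10 to 50 kb rho was 0.18 over 1157 pairs, and at 1000 kb or more -0.01 over 611 pairs. For C/EBPα peaks the rho values were 0.27 over 631 pairs, 0.36 over 118, 0.19 over 1290 and -0.01 over 601. Of the 166 PPARγ pairs 1 to 10 kb apart in which both peaks were past 2-fold, 138 leaned to the same coactivator, and of the 163 pairs 1000 kb or more apart 94 did. Among all PPARγ peaks past 2-fold 77.2% leaned to MED1, so many pairs would lean the same way without any likeness of neighbours. Successive pairs share peaks and local background, so these values are descriptions.

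**Figure D5:**
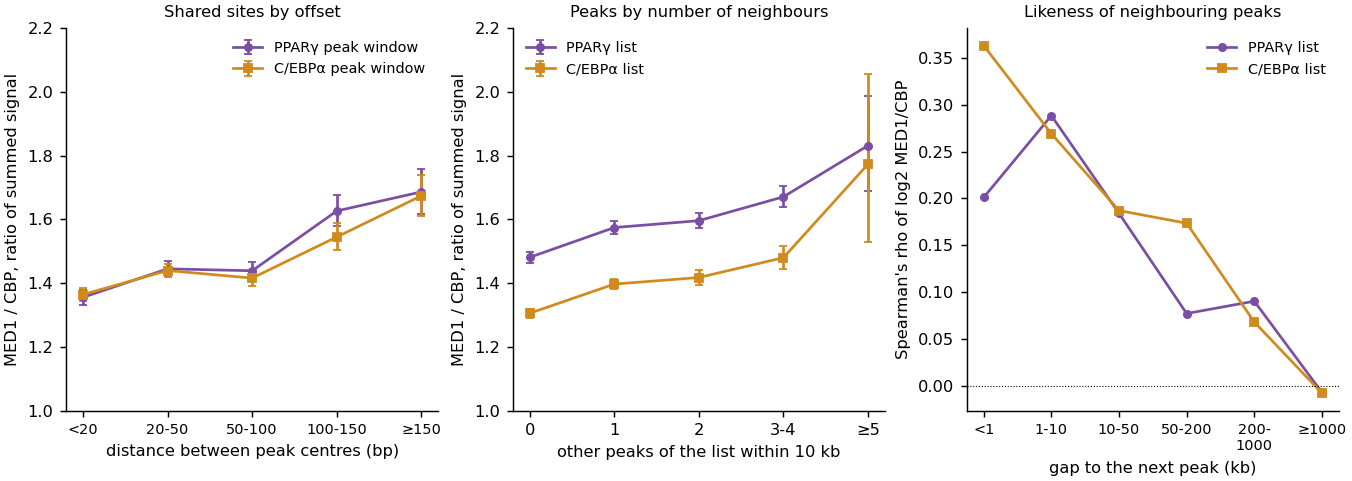
Left, MED1:CBP ratio of summed signal at shared sites by the distance between the PPARγ and C/EBPα peak centres in bp. Middle, the same ratio by the number of other peaks of the list within 10 kb, both with 95% counting intervals. Right, Spearman's rho of the log2 MED1/CBP values of successive peaks by the gap between them in kb. The ratio runs from 1.36 to 1.69 in the left panel for the PPARγ window, and rho reaches -0.01 at 1000 kb or more in both lists.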

How the data were processed

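The submitters' processing notes name build mm9 and the tools FastQC, Bowtie, HOMER and edgeR. Their versions and settings, and which samples entered each peak call, are not stated there. The deposited signal of each peak is a tag count that the authors scaled by 1 factor per library. The peak score and the focus ratio, a fraction, are values per peak as the authors deposited them. The MED1, CBP and C/EBPα columns were matched to samples by antibody and treatment. The PPARγ column names no replicate and was taken as 1 library of its group. The other 4 columns of per-sample values in each list were not used.

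Whole tags were recovered from the step of each column, and with a tolerance of 0.02 steps 100% of values above 0 were whole in the 4 columns of both lists. With 1 library per antibody a count model has no residual degrees of freedom and was not run. Ratios of summed tags were scaled by the steps and given with Clopper-Pearson intervals, and differences between classes with Woolf intervals. Python 3.11.15, pandas 2.3.3, scipy 1.17.1 and statsmodels 0.14.6 were used, and the code was tested on simulated data. The peaks named are taken from the first 5, with 2 others of the first 10 singled out after their values were seen, by log2 ratio in each direction and list among peaks with at least 20 MED1 plus CBP tags, and from the 5 with the most such tags. The comparisons and groupings were chosen with earlier results of these data known. Those by peak score, by both factors at once, by centre distance and by neighbours were added after values had been seen. High background was marked in 1 Mb regions with at least 5 unshared peaks where the other factor's median signal was at least 3 times that of the list, and on the mitochondrial chromosome. It held 14 PPARγ and 28 C/EBPα peaks. Tags carry no molecular identifiers. No gene names or sequences are given, because no annotation or genome of build mm9 was used.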

Additional observations from a re-analysis of the deposited data

How the results depend on the processing

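Leaving out high background or the 10 richest peaks kept every class ratio and class difference within its counting interval. Centred on all listed sites, the ratios were 1.06 (PPARγ list), 0.931 (C/EBPα list), 1.18 (PPARγ-only), 0.982 (shared) and 0.863 (C/EBPα-only), so whether a class lies above 1 is a matter of scale. Medians over peaks with 20 tags gave 1.42 for the C/EBPα list and 1.71, 1.46 and 1.18 for the 3 classes, and the upper part of the list by score gave 1.46 for shared peaks. With an overlap of 50 bp the differences of PPARγ-only and shared peaks from C/EBPα-only peaks were 1.34 and 1.11, and with centres at most 50 bp apart 1.23 and 1.04. Counts of peaks towards MED1 and CBP were 4505 and 1419 (PPARγ list) and 4038 and 1942 (C/EBPα list) at 10 tags, 440 and 109, and 442 and 166 at 40 tags, and 10872 and 5898, and 9493 and 7318 with no minimum. Centred on the median they were 884 and 1046, and 1060 and 1246, and centred on the ratio of sums 884 and 1046, and 1140 and 1186. Pseudocounts of 0.5, 2 and 5 kept every count within 1.5 times. The highest over the lowest group by PPARγ signal in the PPARγ list was 0.685, but 0.909 at 20 tags and 0.720 at shared peaks. In the C/EBPα list it was 0.995, but 1.25 at 20 tags, 0.681 at shared and 1.11 at unshared peaks. The highest unshared group there includes the 2 mitochondrial peaks and the peak at chr17:39984676-39984906, and the value without them was not computed. By C/EBPα signal it was 1.04 in the PPARγ list, with 1.09 at 20 tags and 1.33 at unshared peaks, and 1.29 in the C/EBPα list, with 1.20 at shared and 1.42 at unshared peaks. By focus ratio it was 0.888 in the PPARγ list, with 1.06 at 20 tags, 0.958 at shared and 0.831 at unshared peaks, and 1.05 in the C/EBPα list, with 1.11 at 20 tags and 1.01 at unshared peaks. The cause was not tested. No paired analysis was possible because each antibody has 1 column per list and no replicate number. Ratios at gene loci and motif shares were not run without an annotation or genome of build mm9. A median of 2 or 3 tags per peak limits statements on single peaks.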
